A study of Homo sapiens with 2 samples.

Results

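The 10 genes described here belong to arginine synthesis (ASS1 and ASL), arginine breakdown (ARG2), polyamine synthesis (ODC1, AMD1, SRM and SMS), the control of ornithine decarboxylase (OAZ1 and AZIN1) and polyamine breakdown (SAT1). They were chosen by name from the array's annotation, with earlier results of these arrays known, and all 10 were measured, which means above a background floor on at least 1 array, among 12541 measured genes in all. K562 is an established human cell line that was grown from chronic myeloid leukaemia. RNA came from K562 cells transduced with a retrovirus for PML4, an isoform of the promyelocytic leukaemia protein that scaffolds PML nuclear bodies, and from K562 cells that received the control vector pMSCV, both under G418 selection for 3 weeks. Each group holds 1 array, so the values below compare these 2 arrays only, with no replicate error and no test. The labels do not say whether the cells were clones or pools, and fewer cells expressing a gene cannot be told apart from less RNA per cell.

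Arginine is made from citrulline and aspartate by argininosuccinate synthase (ASS1), the rate-limiting step, followed by argininosuccinate lyase (ASL), and tumour cells that lack ASS1 depend on arginine from outside. Arginase splits arginine into urea and ornithine, and ornithine decarboxylase (ODC1) turns ornithine into putrescine, the first polyamine. Spermidine and spermine are then built with aminopropyl groups that AMD1 provides, while SAT1 acetylates both for export or breakdown. Antizyme (OAZ1) binds ODC1 and sends it to the proteasome, and antizyme inhibitor (AZIN1) titrates antizyme away from ODC1.

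With PML4, the transcripts of ASS1, ARG2 and SAT1 had lower MAS5 signals, a linear array intensity, by 4.88-fold, 3.74-fold and 2.26-fold, and no other member differed by 2-fold in either direction. ASL, AMD1, AZIN1 and ODC1 had higher signals, by 1.62-fold, 1.42-fold, 1.35-fold and 1.22-fold. SRM, SMS and OAZ1 differed by at most 1.10-fold. A gene was called at a 2-fold difference, which 3.21% of all measured genes reached downward and 1.23% upward. Because the genes were listed with this comparison known, the 3 lower calls of 10 describe them and are not read against that share.

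For the 3 genes called lower, the 250 bases before each annotated start are shown so that their promoters can be compared. They are taken from RefSeq on GRCh38.p14, plus strand, at chr9:130444711-130444960 for the downstream of the ASS1 starts, chr14:67619670-67619919 for ARG2 and chrX:23782923-23783172 for SAT1. Capitals mark the E-box CACGTG, bound by MYC and related factors, and the cAMP response element TGACGTCA, bound by CREB and related factors.
ASS1: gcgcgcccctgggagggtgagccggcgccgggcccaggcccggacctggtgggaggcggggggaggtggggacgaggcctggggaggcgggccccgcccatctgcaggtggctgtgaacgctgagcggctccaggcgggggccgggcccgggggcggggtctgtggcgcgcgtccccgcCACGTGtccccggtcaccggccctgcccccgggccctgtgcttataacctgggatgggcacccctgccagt
ARG2: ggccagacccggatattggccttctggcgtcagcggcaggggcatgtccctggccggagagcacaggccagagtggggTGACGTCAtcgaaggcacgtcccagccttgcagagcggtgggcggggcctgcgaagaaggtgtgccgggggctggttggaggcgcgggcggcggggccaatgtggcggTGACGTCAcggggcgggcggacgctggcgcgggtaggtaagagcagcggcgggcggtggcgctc
SAT1: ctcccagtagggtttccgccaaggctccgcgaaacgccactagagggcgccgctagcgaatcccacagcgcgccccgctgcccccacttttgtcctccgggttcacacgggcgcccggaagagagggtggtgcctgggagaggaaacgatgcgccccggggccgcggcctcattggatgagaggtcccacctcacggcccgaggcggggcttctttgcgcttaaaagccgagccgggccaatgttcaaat

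None of the motifs searched occurred in all 3 promoters. RefSeq entries were found for 9 of the 10 members, with 13 start sites. Each window searched held 300 bases, 250 before the start and 50 after it. The AMD1 windows from 110874534 and 110874535 overlap almost wholly, and those of ASS1 in part, so the 13 are not separate promoters. The composite element of the stress factor ATF4, searched as TGATGNAA and TTNCATCA, occurred in 0 of these 13 windows and in 3.62% of 35116 promoters. With so low a share, 0 of 13 is a likely outcome and cannot show a lack of such sites. Sites outside the windows were not searched. The E-box, which reads the same on both strands, lay at position -71 from the ASS1 start, at -199 in SRM and at -29 and 5 in the downstream ODC1 window, and 7.26% of promoters held it. ARG2 held the cAMP response element at -172 and -64, and it was the only member with a match, against 1.85% of promoters. This element also reads the same on both strands and was added to the search after the sequences were seen. The GC box, GGGCGG or CCGCCC, occurred in 12 of the 13 windows, SAT1 being the exception, and in 45.0% of promoters. A match is a run of letters and shows no binding.

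A MAS5 signal summarises the probes of a probe set and is scaled per array. Of 18 probe sets annotated to the 10 genes, 17 name 1 gene and 16 of those were measured, with the floor at 72.4, the median of all human signals. The remaining AZIN1 probe set, 213747_at, was at 49.4 with PML4 and 36.6 with control vector. A probe set shared by ZSWIM8 and SAT1, 210593_at, was at 9.7 with PML4 and 6.8 with control vector. All 10 genes were above the floor on both arrays, so none of their differences is a bound. A gene took its probe set of highest mean log2 signal. Over 19460 pairs of probe sets in 6143 genes, the median gap between the log2 differences of probe sets of 1 gene was 0.30. It is the only spread these arrays give, and it covers no error between arrays or cultures.

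The arrays themselves were alike in their controls. For the 12 probe sets of spiked hybridisation controls without bioB, the ratio of PML4 to control vector signal ran from 0.892 to 1.06. The ratio of the 3' to the 5' probe set of GAPDH was 1.53 on the PML4 array and 1.55 on the control vector array. PML was read by 10 probe sets that moved in both directions: 211013_x_at was at 1386.8 on the PML4 array and 216.3 on the control vector array, and 206503_x_at was at 156.5 and 927.2 on the same arrays. Among genes fixed as marking K562, 8 had measured probe sets, 5 with a higher and 3 with a lower signal on the PML4 array. HBZ, the embryonic zeta-globin, was at 5465.5 with PML4 and 1401.4 with control vector, 3.90-fold higher, and EPOR, the erythropoietin receptor, was at 364.8 and 760.3 on the same arrays, 2.08-fold lower, with 1 of its 4 probe sets higher. HBE1, epsilon-globin, was at 24540.1 with PML4 and 18103.9 with control vector, and TFRC, the transferrin receptor, was at 31653.7 and 17625.2. The transcription factors GATA1 and KLF1 were 1.21-fold and 1.04-fold higher, and TAL1 and LYL1 were 1.44-fold and 1.24-fold lower. GATA1 and TAL1 each had 2 measured probe sets that differed in direction.

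Markers of other blood and stromal cells lay in part above the floor. Of 5 T cell markers 4 were measured, with a summed signal of 5396.3 on the PML4 array and 2870.9 on the control vector array, mostly from CD3D, at 4996.3 and 2478.0. CD3D was thus 2.02-fold higher with PML4, and CD3G, at 329.3 with PML4 and 126.1 with control vector, was 2.61-fold higher. CD2 was under the floor on both arrays, and CD3E and CD5 were under it on the PML4 array, CD5 being at least 2.22-fold lower. Of 3 B cell markers 1 was measured, CD79A, which was at 170.7 with PML4 and 205.5 with control vector. Of 4 monocyte markers LYZ and CSF1R, 2 in all, were measured, with sums of 3176.9 with PML4 and 3282.7 with control vector. Most of this came from LYZ, at 3134.6 and 3206.4 on the same arrays, and its 2 probe sets differed in direction. CD14 was under the floor on both arrays, and CSF1R was under it on the PML4 array, at 42.3. Of 5 fibroblast markers COL1A1 and DCN, 2 in all, were measured, with sums of 335.7 with PML4 and 512.9 with control vector. DCN was under the floor on the PML4 array, at 57.1, and COL1A2, COL3A1 and LUM were under it on both arrays. The part of these signals in the differences of arginine and polyamine genes was not tested.

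**Figure D1:**
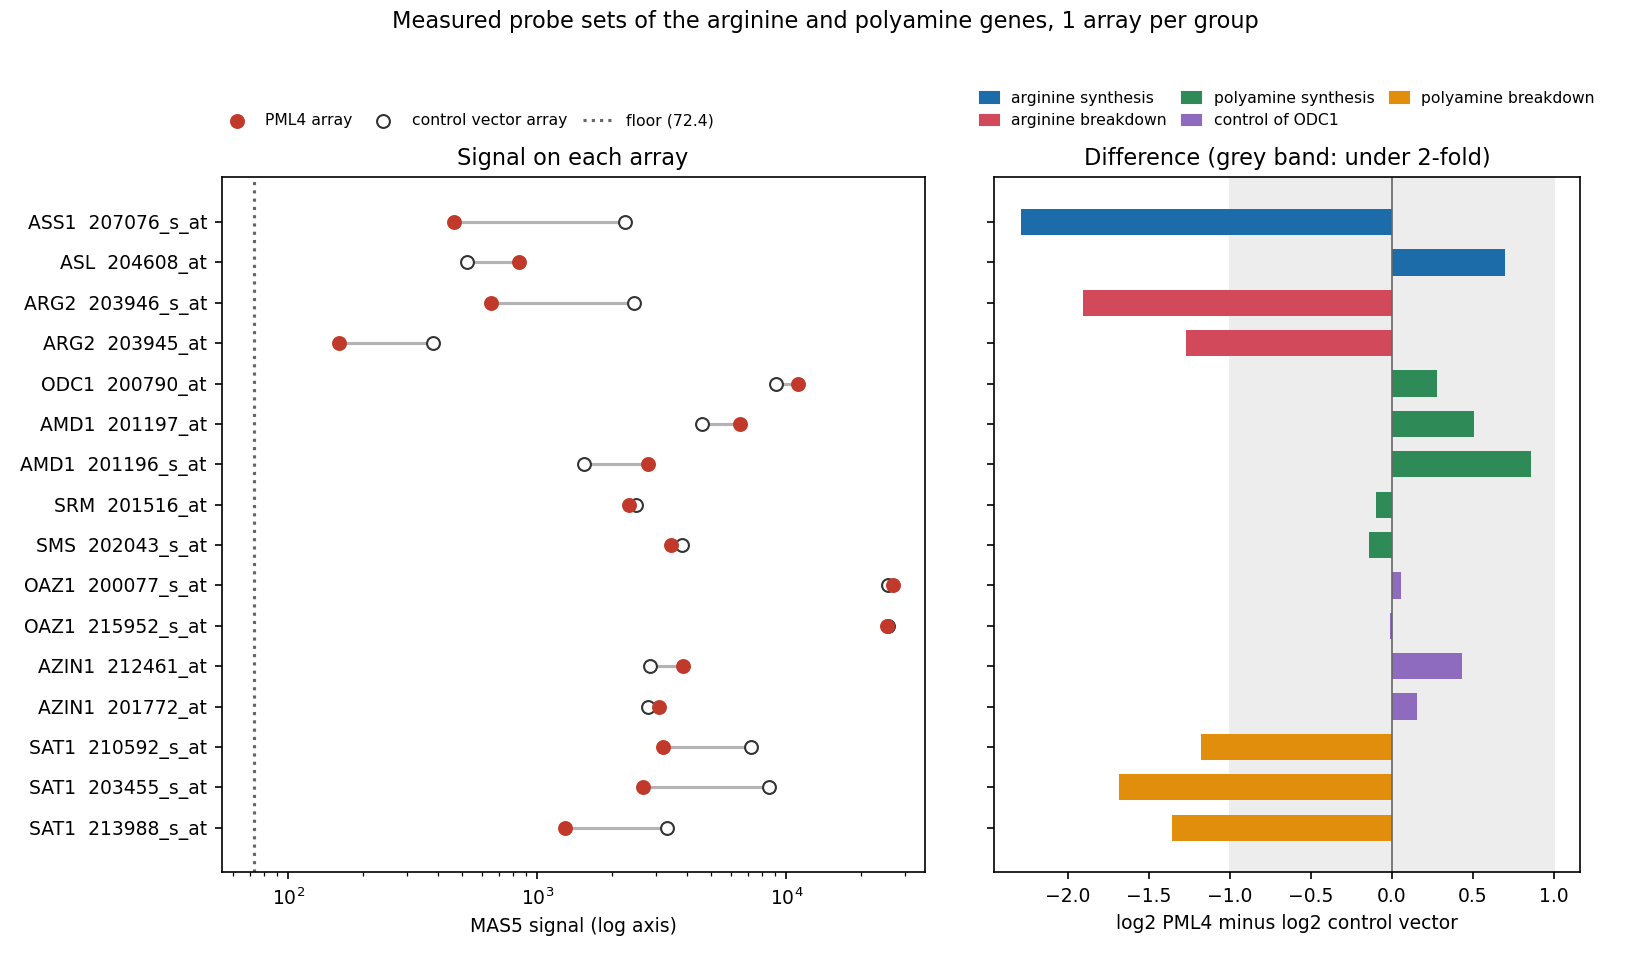
Left, MAS5 signal on a log axis for the 16 measured probe sets, filled points for the PML4 array and open points for the control vector array; right, log2 PML4 minus log2 control vector for the same probe sets, coloured by role, with a grey band for differences under 2-fold. The 6 probe sets of ASS1, ARG2 and SAT1 lie left of the band and all others lie inside it.

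ASS1 and ASL, the consecutive enzymes of arginine synthesis, differed in opposite directions. ASS1 was at 462.3 on the PML4 array, against 2257.0 on the control vector array, read by the single probe set 207076_s_at. This is a 4.88-fold lower signal, or -2.29 on the log2 scale, and only 8 of the 12541 measured genes, ASS1 included, differed downward by as much. Among the 2127 genes whose mean log2 signal lay within 0.5 of that of ASS1, 2 were as low, ASS1 included, and the 5th to 95th percentile of their differences ran from -0.64 to 0.61. ASS1 has processed pseudogenes elsewhere in the genome, and the ending _s_at marks probe sets that can match several transcripts, so its signal can hold more than 1 source.

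ASL was at 844.4 on the PML4 array, against 520.5 on the control vector array, in its single probe set 204608_at. The signal was thus 1.62-fold higher, a log2 difference of 0.70 that exceeds the 0.30 between probe sets and stays under 2-fold. A difference of at least 1.5-fold upward was reached by 5.7% of all measured genes. Among members, only ASL reached it as read by the probe set of highest mean log2 signal. The dimmer probe set of AMD1, 201196_s_at, reached it too, at 1.81-fold higher. Of 2004 genes of like signal 77, or 3.84%, were as high as ASL. ASS1 minus ASL came to -2.99 in log2 difference.

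ARG2, the mitochondrial arginase, was lower in both of its probe sets. The brighter, 203946_s_at, was at 651.0 on the PML4 array, against 2433.3 on the control vector array, a 3.74-fold lower signal. The dimmer, 203945_at, was at 158.9 with PML4 and 382.1 with control vector, 2.40-fold lower. Both therefore passed 2-fold, but their log2 differences of -1.90 and -1.27 lay 0.64 apart, wider than the median gap of 0.30. As read by the brighter probe set, ARG2 ranked 22nd from the lowest of 12541 genes, and 3 of 2223 genes of like signal were as low, ARG2 included. ARG1, the cytosolic liver arginase, was under the floor, at 15.5 with PML4 and 18.1 with control vector.

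The enzymes that build polyamines held no call. ODC1, the first enzyme of the pathway and a MYC target, was at 11082.7 on the PML4 array, against 9119.8 on the control vector array, a log2 difference of 0.28 that is smaller than the 0.30 between probe sets. AMD1, the decarboxylase of S-adenosylmethionine, was higher in both probe sets. Its brighter one, 201197_at, was at 6531.9 with PML4 and 4597.3 with control vector, 1.42-fold higher. The other, 201196_s_at, was at 2788.6 with PML4 and 1537.9 with control vector, 1.81-fold higher. These log2 differences of 0.51 and 0.86 lay 0.35 apart, and 64 of 951 genes of like signal, or 6.73%, were as high as the brighter one.

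Spermidine synthase and spermine synthase, which add the aminopropyl groups, were close on the arrays. SRM was at 2323.0 on the PML4 array, against 2485.5 on the control vector array. SMS was at 3450.1 with PML4 and 3793.3 with control vector. Their log2 differences of -0.10 and -0.14 were smaller than the spread between probe sets. The median of these 4 synthesis genes was 0.09, with 2 higher and 2 lower in signal.

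The regulators of ODC1 protein also stayed under 2-fold. OAZ1, whose mRNA is read through a ribosomal frameshift that polyamines stimulate, was at 26679.1 on the PML4 array, against 25615.6 on the control vector array, in 200077_s_at. In 215952_s_at it was at 25356.7 with PML4 and 25521.5 with control vector, so that its probe sets differed in direction, with log2 differences of 0.06 and -0.01. AZIN1, the inhibitor of antizyme, was at 3825.3 with PML4 and 2832.9 with control vector in 212461_at, 1.35-fold higher. In 201772_at AZIN1 was at 3088.5 with PML4 and 2766.9 with control vector, 1.12-fold higher. Of 1526 genes of like signal 173, or 11.3%, were as high as AZIN1 in the brighter probe set.

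SAT1, the acetyltransferase that starts the breakdown of spermidine and spermine, was lower in all 3 probe sets that name it alone. The one of highest mean log2 signal, 210592_s_at, was at 3193.1 on the PML4 array, against 7210.7 on the control vector array, 2.26-fold lower. In 203455_s_at the signal was 2660.2 with PML4 and 8525.5 with control vector, 3.20-fold lower. In 213988_s_at it was 1291.7 with PML4 and 3306.3 with control vector, 2.56-fold lower. The 3 log2 differences, from -1.68 to -1.18, all passed 2-fold, and the probe set that stands for the gene gave the smallest of them. Among the 3136 genes whose mean log2 signal reached the 75th percentile, 0.702% were at least 2-fold lower and 0.51% at least 2-fold higher. Of these 3136 genes, 14 were as low as SAT1, itself included.

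**Figure D2:**
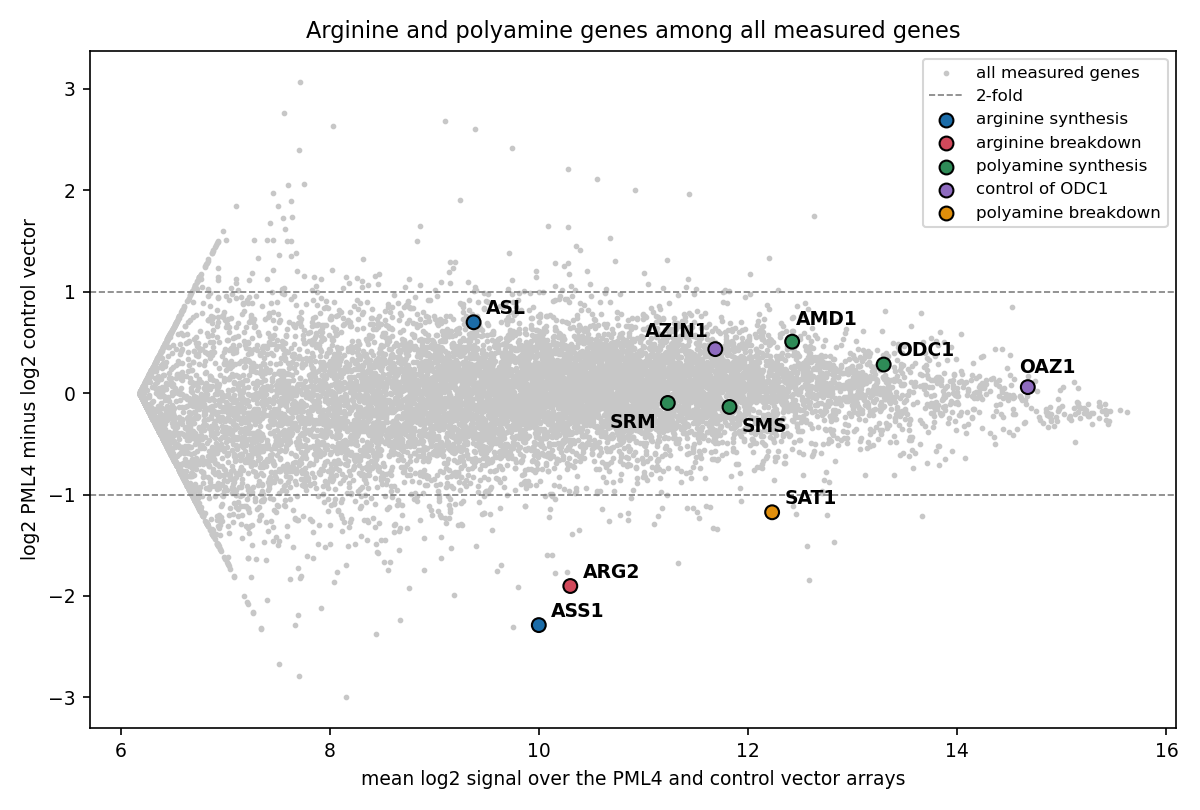
Each grey point is 1 of 12541 measured genes, by its mean log2 signal over both arrays (x axis) and its log2 PML4 minus log2 control vector (y axis); large points are the 10 arginine and polyamine genes coloured by role, and dashed lines mark 2-fold. ASS1, ARG2 and SAT1 lie below the lower line, at -2.29, -1.90 and -1.18, and the other 7 lie between the lines.

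Across the 10 genes, PML4 signals were above control vector signals for 5 and below them for 5. Their median log2 difference was -0.02, beside -0.05 over all measured genes, and the members spread from -2.29 to 0.70. Of the 5 members with several measured probe sets, 4 had all of them in the same direction, and OAZ1 did not. Differences of 6 members exceeded the median gap of 0.30 between probe sets, and those of ODC1, SRM, SMS and OAZ1 did not. The gap holds no error between arrays, so it does not sort the members into changed and unchanged. The 3 genes called lower were not those of a single step: ASS1 makes the precursor of arginine, ARG2 consumes arginine, and SAT1 removes the end products.

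Other genes of arginine and polyamine metabolism held no call at 2-fold. From 4 further lists of 38 genes, 30 were measured, 10 with a higher and 20 with a lower signal, and their log2 differences ran from -0.98 to 0.92. Of the 30, 5 lay under the floor on 1 array, so their differences are bounds and can be larger. The median was -0.25, beside -0.05 over all measured genes. The median over all genes was -0.09 with a 25th percentile floor and 0.02 with a 75th percentile floor. It was thus lower when dimmer genes were counted. The share of all measured genes lower in signal was not computed, so counts by direction only describe these lists. At 1.5-fold, 3 of the 30 (10.0%) were higher and 5 (16.7%) lower, beside 5.7% and 11.8% of all measured genes. The lower ones include MTAP and DOHH, both under the floor on the PML4 array, and MTAP sets the -0.98.

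Genes that supply or use arginine were lower in signal in 7 of 10 measured cases, with a median log2 difference of -0.37. Among the lower ones, AGMAT and NOS1 were under the floor on the PML4 array, so their differences are bounds. OAT, which converts ornithine to glutamate semialdehyde, was at 12181.4 on the PML4 array, against 10627.5 on the control vector array. SLC7A1, the main cationic amino acid transporter that imports arginine, was at 4006.6 with PML4 and 5160.0 with control vector, though 1 of its 3 probe sets was higher. SLC25A15, the mitochondrial ornithine carrier, was at 969.2 with PML4 and 1108.8 with control vector, and its 2 probe sets differed in direction. The remaining 8 of the 18 listed genes, among them ARG1 and OTC, a liver enzyme of the urea cycle, were under the floor on both arrays.

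Regulators, breakdown enzymes and transporters of polyamines were all measured, 3 higher and 5 lower in signal, with a median of -0.24. ATP13A3, a polyamine transporter, was at 1717.7 on the PML4 array, against 2419.6 on the control vector array, 1.41-fold lower, but its 2 probe sets differed in direction. OAZ2, a second antizyme, was at 559.3 with PML4 and 394.8 with control vector, 1.42-fold higher, also with its 2 probe sets in opposite directions. SAT2, the paralog of SAT1, was at 376.1 with PML4 and 446.7 with control vector, 1.19-fold lower, against 2.26-fold for SAT1. Named after their values were seen, PAOX, an oxidase of acetylated polyamines, was at 315.1 with PML4 and 166.3 with control vector, 1.89-fold higher, with 2 of 4 probe sets lower. AZIN2, a second antizyme inhibitor named in the same way, was at 97.9 with PML4 and 165.4 with control vector, 1.69-fold lower.

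The supply of S-adenosylmethionine and the salvage of methylthioadenosine, the by-product of spermidine and spermine synthesis, had a median of -0.05 over 8 genes. MAT2A, which makes S-adenosylmethionine, was at 7641.8 on the PML4 array, against 7846.4 on the control vector array, and its 2 probe sets differed in direction. MAT2B, its regulatory subunit, was at 5440.7 with PML4 and 5045.4 with control vector. ENOPH1, a salvage enzyme, was at 5070.6 with PML4 and 3958.6 with control vector, 1.28-fold higher. MTAP, GOT1 and ADI1 were singled out after their values were seen. MTAP, the phosphorylase that opens the salvage, was at 55.6 with PML4 and 142.9 with control vector, at least 1.97-fold lower. Its only measured probe set was under the floor of 72.4 on the PML4 array. Whether either signal stands for MTAP transcript or for background was not tested. GOT1, a transaminase, was 1.64-fold lower. ADI1, a later salvage enzyme, was 1.56-fold higher, with 1 of its 3 probe sets lower.

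Hypusine, a modified lysine made from spermidine, occurs in the translation factor EIF5A. EIF5A was at 9584.9 on the PML4 array, against 6347.7 on the control vector array, 1.51-fold higher and higher in all 3 probe sets. Its paralog EIF5A2 was at 232.9 with PML4 and 338.6 with control vector, 1.45-fold lower. DHPS, the first enzyme of hypusine formation, was at 1229.0 with PML4 and 1963.5 with control vector, 1.60-fold lower, with 1 of its 3 probe sets higher. DOHH, the second enzyme, was singled out with its value known, and it was at 55.2 with PML4 and 119.6 with control vector, at least 1.65-fold lower.

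**Figure D3:**
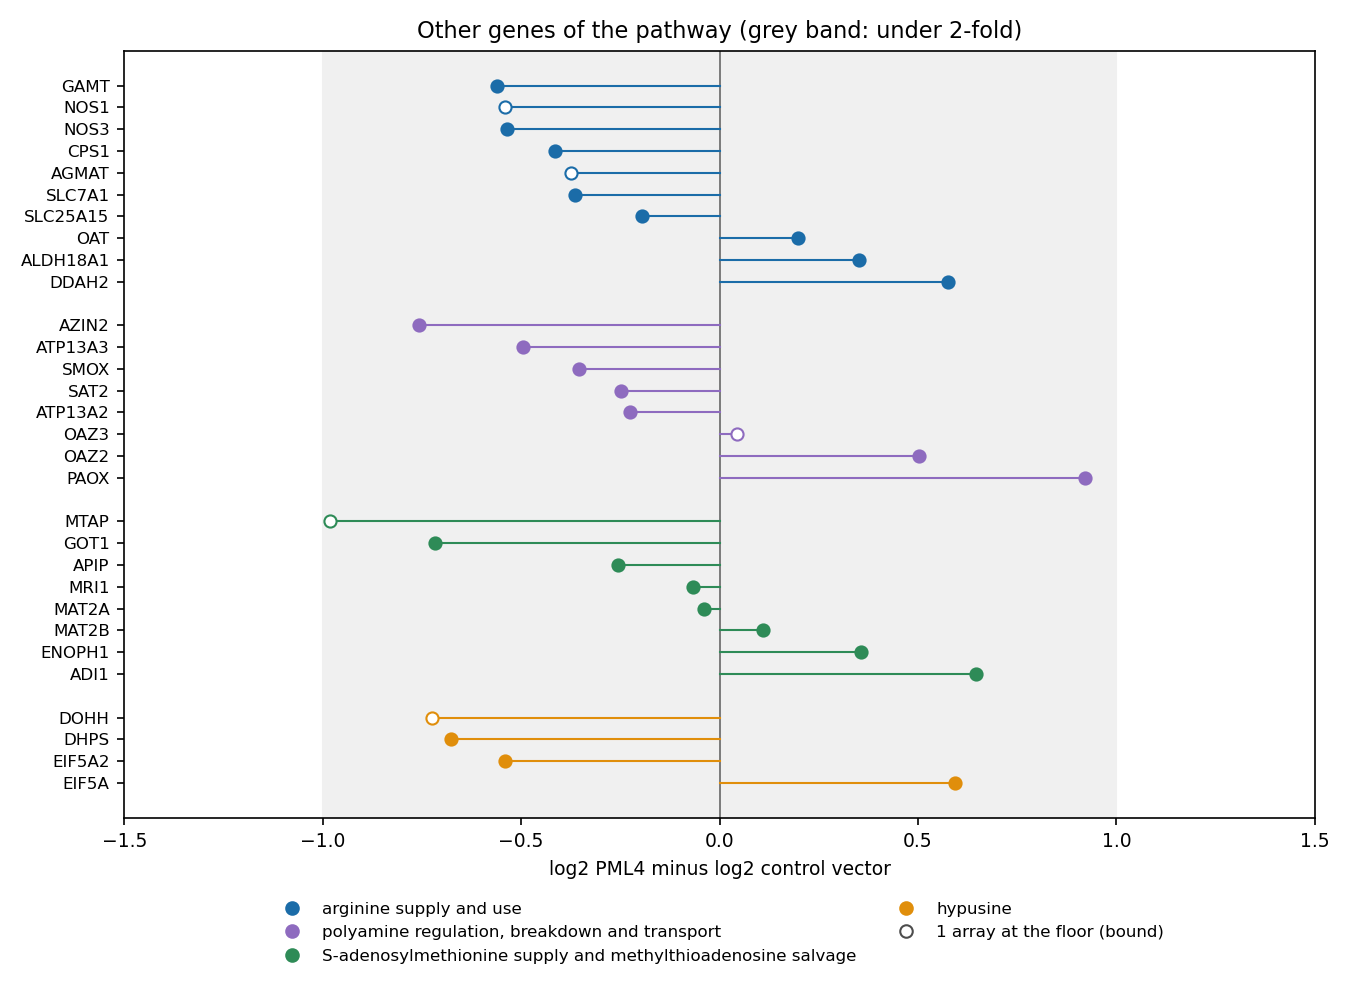
Log2 PML4 minus log2 control vector (x axis) for the 30 measured genes of 4 further lists, ordered within each list by difference; open points are bounds with 1 array at the floor, and the grey band marks differences under 2-fold. All 30 are drawn inside the band, 20 of them left of 0, and the 5 open points can lie farther from 0 than drawn.

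Scaling did not turn the direction of any of the 10 genes. After the median gene was set to 0, after quantile normalization and after loess centring, ASS1 ran from -2.30 to -2.24, ARG2 from -1.93 to -1.85 and SAT1 from -1.21 to -1.13. ASL ran from 0.72 to 0.75 and AMD1 from 0.48 to 0.56 under the same scalings. OAZ1 ran from 0.11 to 0.19 and SRM from -0.14 to -0.05. Over all genes, 154 were at least 2-fold higher and 402 lower as deposited, 196 and 281 after quantile normalization and 187 and 306 after loess centring. Without probe sets whose names end in _x_at or _s_at there was no value for ASS1, SMS, OAZ1 and SAT1, which have no other. ARG2 was then at -1.27, the only call among 6 genes. Over all genes without such probe sets, 135 of 9844 were at least 2-fold higher and 329 lower.

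**Figure D4:**
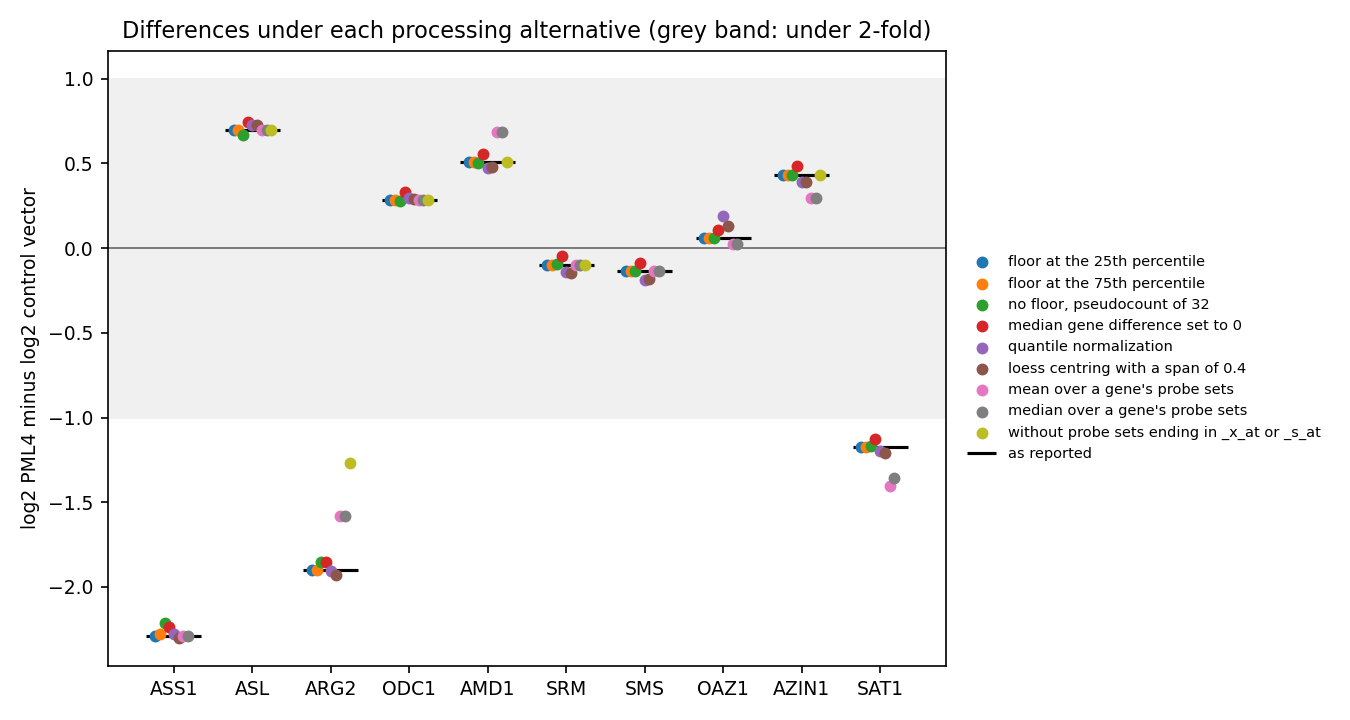
Log2 PML4 minus log2 control vector (y axis) for the 10 genes (x axis) as reported (black bars) and under each of 9 processing alternatives (coloured points), with a grey band for differences under 2-fold. ASS1, ARG2 and SAT1 stay below the band wherever they have a value, between -2.30 and -1.13, and the other genes stay inside it.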

How the data were processed

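Total RNA of K562 cells with PML4 or control vector, 1 sample each, was labelled from 6 µg and hybridised to Affymetrix arrays, per the labels' protocols. The authors deposited linear signal intensities made with MAS5, per the submitters' processing notes, which name no version. Its settings are not given in the labels. Trimmed by 2% at each end, the mean was 500.1 on the PML4 array and 500.0 on the control vector array. The table holds 54613 human probe sets, of which 41091 name 1 gene, 1801 several and 11721 none in the annotation used.

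The rest was computed here with Python 3.11.15, pandas 2.3.3 and statsmodels 0.14.6. Values below the floor were set to the floor, then log2 was taken. Probe sets on 1 array at the floor give bounds. Differences are log2 PML4 minus log2 control vector, and a call is at least 2-fold. All measured cell type markers are named too. The calculation was tested on simulated data, in which known fold changes and random noise were put on the control vector signals. That test checks the code and says nothing of error between arrays or cultures. The number of arrays limits the precision. Members, lists and the naming rule (every member probe set, PML, and per pathway list the calls and the 3 brightest genes) were chosen with earlier results of these data known. With 2 arrays no likeness of pattern between genes can be computed. Alternatives were floors at other percentiles (25th, 75th), a pseudocount of 32 in place of the floor, 3 scalings, 3 ways to choose probe sets, and calls at 1.5-fold and 3-fold.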

Additional observations from a re-analysis of the deposited data

How the results depend on the processing

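Of 86 values of single members under 9 alternatives, 83 lay within 0.30 (log2) of the reported one and 0 changed direction. Many of the 86 could not move, so these counts overstate how far the values were tried. All 10 members lay above the floor on both arrays, so the 25th percentile floor repeated the reported values. The 5 members with 1 measured probe set kept their values under the mean and the median over probe sets. The 3 values farther off than 0.30 were all for ARG2. It was at -1.58 with the mean and with the median over its probe sets and at -1.27 when probe sets named _x_at or _s_at were dropped. With those names dropped, 6 members had a value, and 1 member in place of 3 was at least 2-fold lower, beside 329 of 9844 genes. The median of the members was then 0.36 in place of -0.02, because 4 members have no other probe set. At 1.5-fold, 1 member, ASL, was called higher in place of 0. AMD1 also passed 1.5-fold with the mean or the median over its probe sets, at 0.68 in place of 0.51. At 3-fold 2 members, ASS1 and ARG2, were called lower, and the share of all measured genes at 3-fold was not computed. The median of the members ran from -0.04 to 0.03 under the other alternatives and so changed sign with the scaling. Over all genes, a 25th percentile floor gave 667 higher and 2000 lower calls and a 75th percentile floor gave 50 and 63, in place of 154 and 402. Higher calls made up 27.7% of calls with the values as deposited, 41.1% after quantile normalization, 37.9% after loess centring and 44.2% with the higher floor. No paired analysis was possible because each group holds 1 array. Signals near the floor are the least precise, which touches MTAP, DOHH and AZIN2 more than the 10 genes.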
